A study of Mus musculus with 8 samples.

Results

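The 10 genes described here encode heat shock chaperones, and they were followed across the leukocyte lineages of the mouse posterior eye. They are the inducible HSP70 pair Hspa1a and Hspa1b, the constitutive HSP70 Hspa8, the HSP110 Hsph1, the HSP40 Dnajb1, the cytosolic HSP90 pair Hsp90aa1 and Hsp90ab1, the mitochondrial chaperonin subunits Hspd1 and Hspe1, and the small heat shock protein Hspb1. The members were taken by symbol from the 32285 genes of 4 single-cell RNA libraries, and all 10 were found. The set was chosen by values of these same libraries, namely the ratio of Hsph1 between Nr4a1-/- and wildtype (WT) microglia, which was above 1 both without and with laser, so the genotype values below are descriptions and carry no test.

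The study asked how the nuclear receptor gene Nr4a1, which non-classical monocytes require, shapes ocular immune cells in laser-induced choroidal neovascularization, a mouse model of neovascular macular degeneration. CD45+ cells, the leukocytes, were sorted from retina and choroid of female mice aged 10 to 12 weeks, and 1 library was made from each of 4 pools: WT without laser (control), WT with laser, and the same pair for Nr4a1-/-. Where 4 values follow one another they are in that order. A control pool, called sham in the labels, held 22 mice and a laser pool 11 to 12 mice, whose eyes received 8 focal burns each and were taken at day 3. With 1 library a group, no member can be tested between genotypes or between laser and control, and the intervals given for these ratios cover counting error only. The labels give the strain C57BL/6J for every sample, while the study's methods give a mixed B6;129S2 stock for the Nr4a1-/- mice. The deletion is present in every cell of the animal, and the mice also lack most non-classical monocytes. The Nr4a1-/- control library carries another library series number than the other 3 libraries. The labels do not say what this number stands for. In the control pair genotype and library series cannot be told apart, and in the Nr4a1-/- laser comparison treatment and library series cannot be told apart.

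Heat shock chaperones hold unfolded proteins, refold them or pass them on. When unfolded protein accumulates after heat, oxidation or other stress, the transcription factor HSF1 is released from chaperones, binds heat shock elements in its target promoters and drives transcription of the inducible members within minutes. Hspa1a and Hspa1b are the classical targets, with low levels in most unstressed cells. Hsph1 exchanges the nucleotide of HSP70, and Dnajb1 delivers clients to HSP70 and stimulates its ATPase. Hspa8 and Hsp90ab1 work in unstressed cells as well, Hsp90aa1 is the more inducible of the cytosolic HSP90s, and Hspd1 with Hspe1 folds proteins in the mitochondrial matrix. Enzymatic preparation of tissue is itself known to raise stress transcripts, so a list of immediate-early and dissociation genes was followed beside the members.

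The heat shock element is built of inverted GAA units, and the promoters of the members were searched for its letters because the data turn on members that move together. RefSeq promoter windows on GRCm38.p6, from 250 bases before to 50 after a start site, were at hand for 7 of the 10 members in 10 windows. The element of 2 adjoining units, written GAANNTTC or TTCNNGAA and searched on both strands, was present in 6 of these 7 members, against 17.0% of 27025 genes with a promoter window (15.1% of 32851 promoters). The 3-unit form, GAANNTTCNNGAA or TTCNNGAANNTTC, each of which contains the shorter motif, was present in 3 members, Hsph1, Hspd1 and Hspe1, against 0.662% of these genes (0.603% of promoters). Dnajb1 had neither in its windows. A match is a run of letters and not a measured site. The stretches printed run 5′ to 3′ on the strand of the gene, with the matching letters in capitals.
Hspa1a, chr17:34972157-34972306, minus strand: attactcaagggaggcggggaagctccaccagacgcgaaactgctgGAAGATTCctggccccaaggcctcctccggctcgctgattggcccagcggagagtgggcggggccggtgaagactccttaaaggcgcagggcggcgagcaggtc
Hspa1b, chr17:34959239-34959388, minus strand: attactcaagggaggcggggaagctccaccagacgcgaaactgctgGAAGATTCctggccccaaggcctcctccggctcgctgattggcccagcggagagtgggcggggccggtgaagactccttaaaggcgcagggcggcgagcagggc
Hsph1 before the start site, chr5:149636352-149636381, minus strand: tgggtagaatctTTCTCGAAggctcgagaa
Hsph1 after the start site, chr5:149636287-149636316, minus strand: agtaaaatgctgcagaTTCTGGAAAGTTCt
Hspe1, chr1:55087998-55088131, plus strand: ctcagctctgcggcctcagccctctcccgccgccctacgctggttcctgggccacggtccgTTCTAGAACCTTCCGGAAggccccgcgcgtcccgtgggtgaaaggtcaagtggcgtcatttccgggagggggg
Hspb1, chr5:135887769-135887918, plus strand: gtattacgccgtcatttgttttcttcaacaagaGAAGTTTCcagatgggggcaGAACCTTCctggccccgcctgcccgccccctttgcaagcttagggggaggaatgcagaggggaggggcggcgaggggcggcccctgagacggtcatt

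These stretches show why 2 pairs of members need care. Hspa1a and Hspa1b lie 9951 bases apart on chromosome 17, and their windows of 300 bases differ at 4 positions, 1 of them in the stretch printed. Reads of such near-identical copies can be split between them in an uncertain way, so the pair is also counted together per cell below. Hspd1 and Hspe1 sit head to head on chromosome 1, their gene models share 112 bases, and the run of capitals printed for Hspe1 is the same 18 bases read from the other strand in the Hspd1 window. For Hsph1 the start site differs between windows. By the window printed, the shorter match lies 33 to 26 bases before the start site and the longer match 37 to 49 bases after it. By the other window they lie 54 to 47 bases before and 16 to 28 bases after. The gene model used for positions begins further upstream, at chr5:149636376, so both matches lie inside that model. The other members lie on chromosome 9 (Hspa8), 8 (Dnajb1), 12 (Hsp90aa1) and 17 (Hsp90ab1).

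After filters on detected genes and mitochondrial share, 1649 to 3791 cells per library were kept, with a median of 3676 to 7618 unique molecular identifiers (UMIs) per cell and a median mitochondrial share of 1.49% to 2.10%. Lineages were gated on marker genes that hold no chaperone, which placed 63.6% to 82.4% of the kept cells, and 9 lineages held at least 20 cells in all 4 libraries. Each of these 9 detected all of its 7 to 9 markers in every library. Libraries shared 1 to 7 cell barcodes. Nr4a1 itself, the check of the labels, was at 309.7 and 278 CPM (UMIs scaled to a total of 1000000) in the WT control and laser libraries and at 90.7 and 54.9 CPM in the Nr4a1-/- ones over all kept cells, so the 2 libraries labelled Nr4a1-/- were the lower ones.

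Inducible chaperone transcripts were far higher in Nr4a1-/- control than in WT control cells, while after laser the genotypes lay close together. Over all kept cells Hspa1a was at 64.5 and 73.1 CPM in the WT control and laser libraries, and at 585 and 57.8 CPM in the Nr4a1-/- ones. Hspa1b was at 10.3, 9.42, 154 and 8.48 CPM. In both genes 3 libraries were close together and the Nr4a1-/- control library stood apart. The ratio of Nr4a1-/- control to WT control was 9.08 for Hspa1a (95% interval 8.59 to 9.60) and 14.96 for Hspa1b (13.1 to 17.1), where the ratio of Nr4a1-/- laser to WT laser was 0.79 (0.712 to 0.875) and 0.901 (0.677 to 1.18).

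The co-chaperones followed the HSP70 pair. Hsph1 was at 22.6, 16.1, 133 and 19.7 CPM, and its control ratio was 5.87 (5.33 to 6.48). For Dnajb1 the levels were 87.3, 68.3, 171 and 63.2 CPM, with a control ratio of 1.96 (1.85 to 2.09). Hspb1, a small heat shock protein that holds unfolding clients without ATP, had few transcripts, 92, 56, 245 and 1 UMIs in the 4 libraries, and a control ratio of 4.77 (3.74 to 6.13).

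The HSP90 pair, the mitochondrial members and Hspa8 had control ratios of 2.21 or less. Hsp90aa1 was at 421, 379.6, 930.4 and 433 CPM, a control ratio of 2.21 (2.15 to 2.27). Hspd1 had 78.2, 78.4, 151 and 92.6 CPM, and Hspe1 157, 188, 256 and 216 CPM, which gave control ratios of 1.93 (1.81 to 2.06) and 1.63 (1.56 to 1.71). Hspa8 (883, 1154, 1300.2 and 1277 CPM) and Hsp90ab1 (996, 945, 1380.3 and 1230.1 CPM) stayed just under the limit of 1.5-fold, with 1.47 and 1.39. In Hspa8 the laser libraries of both genotypes were nearly as high as Nr4a1-/- control, unlike in the HSP70 pair and Hsph1.

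**Figure D1:**
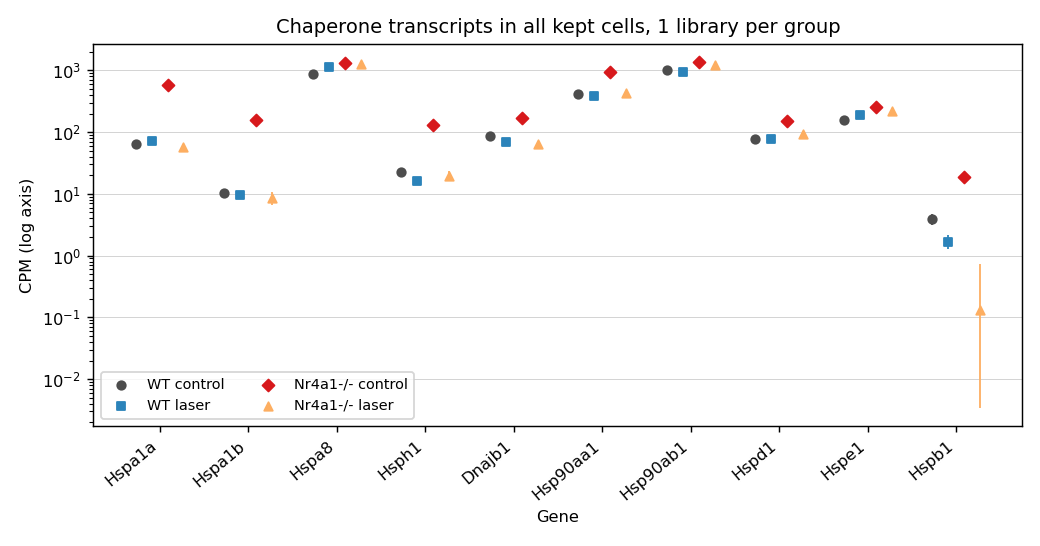
CPM on a log axis of the 10 chaperones over all kept cells, a point for every library, with exact Poisson 95% intervals that cover counting error only. The Nr4a1-/- control library is the highest of the 4 for every member, by the widest margin for Hspa1a, Hspa1b and Hsph1 and by a narrow one for Hspa8.

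Counted with at least 40 UMIs over both libraries, 8 of the 10 members were at least 1.5-fold higher in Nr4a1-/- control than in WT control and none was lower by that fold, where 3.00% of 13674 genes were higher and 6.53% lower. By size of ratio Hspa1b ranked 1st, Hspa1a 4th, Hsph1 7th and Hspb1 12th of these genes. After laser 0 of 10 were higher and 1, Hspb1, was lower, against 3.06% and 9.54% of 13623 genes. The libraries of the laser pair carry the same series number and those of the control pair do not. The labels do not say whether this reflects a separate preparation, and its part in the control ratios was not tested. Since the members were chosen with these ratios known, the counts describe the libraries and support nothing beyond them.

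In microglia-like cells, the resident macrophages of the retina, Hsph1 was the member that differed in both pairs, as the choice of the set required. It had 97 UMIs (32.1 CPM) in the WT control library, 28 (6.75 CPM) after laser, 322 (186 CPM) in the Nr4a1-/- control library and 16 (23.9 CPM) after laser. The control ratio was 5.79 (4.60 to 7.35) and the laser ratio 3.54 (1.79 to 6.78). The Nr4a1-/- laser level was itself below that of WT control, and WT laser was the lowest of the 4. With no upper limit on the detected genes of a cell the laser ratio was 2.27.

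Other members of microglia-like cells followed in the control pair only in part. Hspa1a was at 229, 110.2, 747 and 94.1 CPM, so the control ratio was 3.26 (2.97 to 3.58) and the laser ratio 0.855 (0.646 to 1.11). Hspa1b was at 26.8, 7.23, 199 and 8.97 CPM, a control ratio of 7.41 (5.80 to 9.56), and had 36 UMIs over the laser pair, under the minimum. Hsp90aa1 was at 620.3, 391, 1575 and 460.3 CPM, with ratios of 2.54 (2.39 to 2.69) and 1.18 (1.04 to 1.33). Hspe1, Dnajb1 and Hspb1 had control ratios of 1.89, 1.52 and 2.14, the last from 22 and 27 UMIs. In all, 7 of 10 members were higher by 1.5-fold in the control pair, where 5.24% of 8411 genes were higher, and 0 were lower, where 7.64% were. In the laser pair 2 of the 8 members over the minimum were higher, Hsph1 and Hspd1 (1.53, 1.15 to 2.00), against 8.92% of 8462 genes, and Hsp90ab1 at 1.49995 (1.38 to 1.63) lay just under the limit. None was lower, against 12.2%.

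The 8 markers of neutrophils had summed levels of 234, 193, 324 and 164 CPM inside the microglia-like cells, with a UMI of 8, 8, 7 and 4 of them. In the Nr4a1-/- control library, neutrophil-like cells held 9.56 CPM of Hspa1a, from few UMIs, and microglia-like cells 747 CPM. The part of neutrophil transcripts in the microglia ratios was not tested.

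The high level of the Nr4a1-/- control library was not particular to microglia-like cells. Hspa1a was at least 1.5-fold higher in the control pair in 8 of the 8 lineages over the minimum, Hspa1b in 7 of 7, Hsph1 in 8 of 8 and Hsp90aa1 in 9 of 9. Dnajb1 was higher in 7 of 9, Hspd1 in 6 of 8, Hspe1 in 5 of 8, Hspa8 in 3 of 9 and Hsp90ab1 in 2 of 9. No member was lower by that fold in any lineage of this pair.

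The ratio was widest where WT control cells held almost none of these transcripts. B-like cells had 11 Hspa1a UMIs in WT control (2.86 CPM) and 1275 in Nr4a1-/- control (593 CPM), a ratio of 207 (116 to 416). The laser libraries were at 18.1 CPM (WT) and 32.0 CPM. Hsph1 in these cells was at 17.2, 14.1, 138 and 13.99 CPM, a control ratio of 8.05 (6.15 to 10.7). Of the 9 members over the minimum in B-like cells all 9 were higher, against 3.60% of genes, and 0 lower, against 6.06%. In the laser pair 2 of 7 were higher, Hspa1a (1.76, 0.914 to 3.26) and Hsp90ab1 (1.61, 1.47 to 1.77), against 9.66%, and 0 lower, against 9.06%.

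T-like and NK-like cells had low WT levels as well. Hspa1a in T-like cells was at 4.76, 13.5, 146 and 19.5 CPM, a control ratio of 30.6 (18.5 to 54.3), and in NK-like cells at 2.58, 7.81, 153 and 3.02 CPM, a control ratio of 59.5 (22.7 to 222) that rests on 4 WT UMIs. In T-like cells 5 of 9 members were higher in the control pair against 3.24% of genes, and in NK-like cells 9 of 9 against 4.91%, with 0 lower in either against 6.48% and 6.86%. In the laser pair 0 of 8 and 0 of 7 members were higher, against 7.97% and 8.55%, and 0 lower, against 14.1% and 11.3%.

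Among myeloid lineages the WT level of Hspa1a varied more. Resident macrophage-like cells, marked by Lyve1 and Folr2, were at 252, 232, 1417 and 136 CPM of Hspa1a, a control ratio of 5.62 (5.06 to 6.26). The cDC2-like cells, conventional type 2 dendritic cells, were at 31.0, 49.4, 1250.1 and 37.1 CPM, a control ratio of 40.3 (26.2 to 65.4). Classical monocyte-like cells were at 29.9, 43.7, 411 and 20.1 CPM, a control ratio of 13.7 (10.1 to 19.1), though Hsph1 there was at 17.3, 15.7, 29.4 and 18.2 CPM, with a control ratio of 1.70 (1.01 to 2.92). In cDC1-like cells 0 Hspa1a UMIs were found in WT control, which allows 3, against 309 in Nr4a1-/- control, at least 152-fold higher by that floor. The members higher in the control pair numbered 7 of 9 in resident macrophage-like cells (6.53% of genes), 7 of 9 in cDC2-like cells (9.01%), 6 of 9 in classical monocyte-like cells (6.60%) and 5 of 8 in cDC1-like cells (6.89%). None was lower, where 6.39%, 6.64%, 7.72% and 10.1% of genes were.

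After laser the same lineages had few members past 1.5-fold, and those of the HSP70 system were lower in Nr4a1-/-. Hspa1a was lower in resident macrophage-like (ratio 0.584, 0.468 to 0.723), monocyte-derived macrophage-like (0.502, 0.259 to 0.910) and classical monocyte-like cells (0.459, 0.221 to 0.861), 1 of 9, 1 of 6 and 1 of 8 members against 8.18%, 15.1% and 10.3% of genes. Dnajb1 was lower in cDC2-like cells (0.351, 0.171 to 0.650), 1 of 7 members against 9.75%, and 0 of 5 were lower in cDC1-like cells, against 10.9%. No member was higher in these 5 lineages, against 7.60%, 5.92%, 7.01%, 9.80% and 11.9%. These counts lie near the shares of all genes. Hspa1b did not follow Hspa1a throughout. Under the minimum of UMIs, its ratio was 1.86 in classical monocyte-like and 0.273 in cDC2-like cells. In resident macrophage-like cells it was at 29.8 CPM in WT laser and 31.5 CPM in Nr4a1-/- laser. After thinning, 4.57% of classical monocyte-like cells of WT laser and 4.21% of Nr4a1-/- laser had a UMI of the pair.

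Neutrophil-like cells were the exception in Hspa1a and Hsph1, on few UMIs. They had 9, 4, 3 and 0 UMIs of Hspa1a and 6, 1, 2 and 0 of Hsph1. The control ratio of Hspa1a was 0.646 (0.112 to 2.59), whose upper bound lies below the smallest ratio of the other lineages, 3.26 in microglia-like cells. The near-identical Hspa1b had a control ratio of 5.81 in neutrophil-like cells, under the minimum of UMIs. With so few UMIs the direction of the pair in these cells was not resolved. Hsp90aa1, at 159.5, 244, 280.4 and 432 CPM, was the member higher in both pairs (1.76 and 1.77). It was 1 of 4 members over the minimum in the control pair, against 6.71% of genes, and none was lower, against 10.7%. In the laser pair Hsp90ab1 (1.97) and Hspe1 (2.58) were higher too, 3 of 4 against 14.8%, and 0 lower, where 14.8% were as well.

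**Figure D2:**
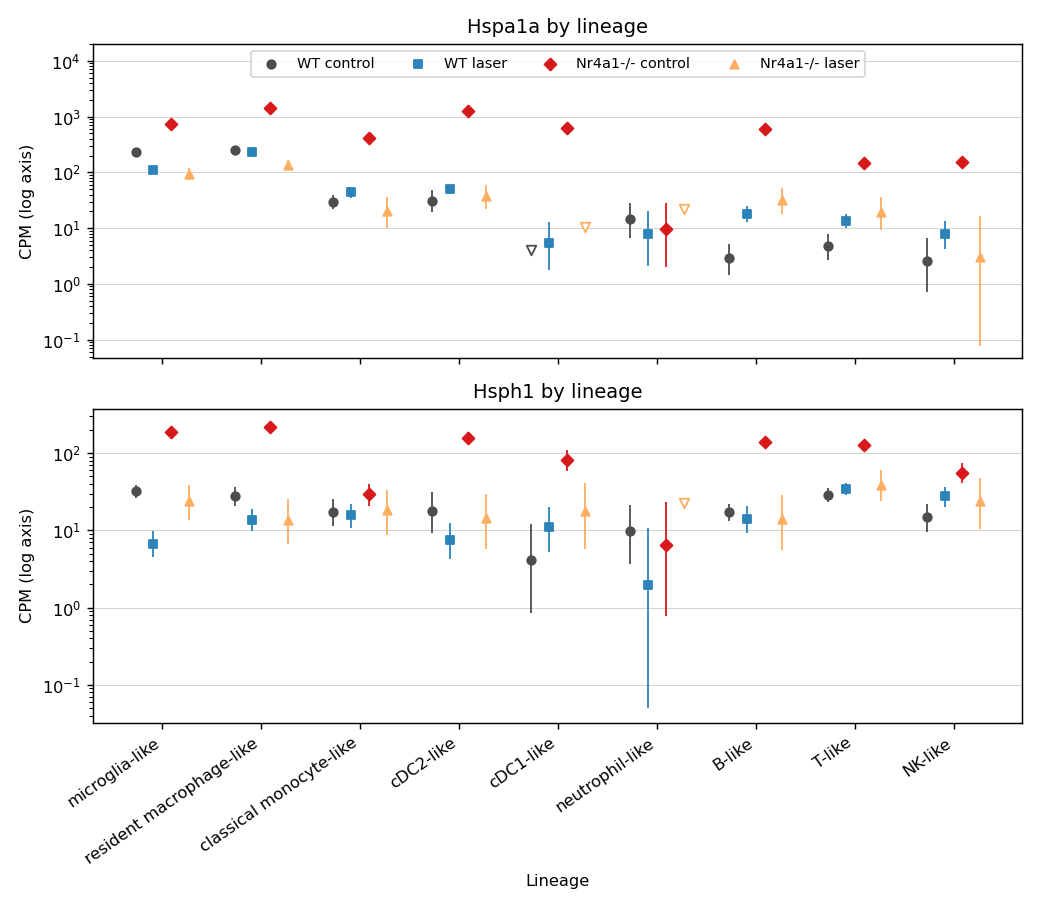
CPM on a log axis of Hspa1a (top) and Hsph1 (bottom) in the 9 lineages, 1 point per library, with exact Poisson 95% intervals; open triangles stand for 0 UMIs and are drawn at the level that 3 counts would give. The Nr4a1-/- control library lies above the others in every lineage but the neutrophil-like one, and for Hsph1 by least in classical monocyte-like cells.

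**Figure D3:**
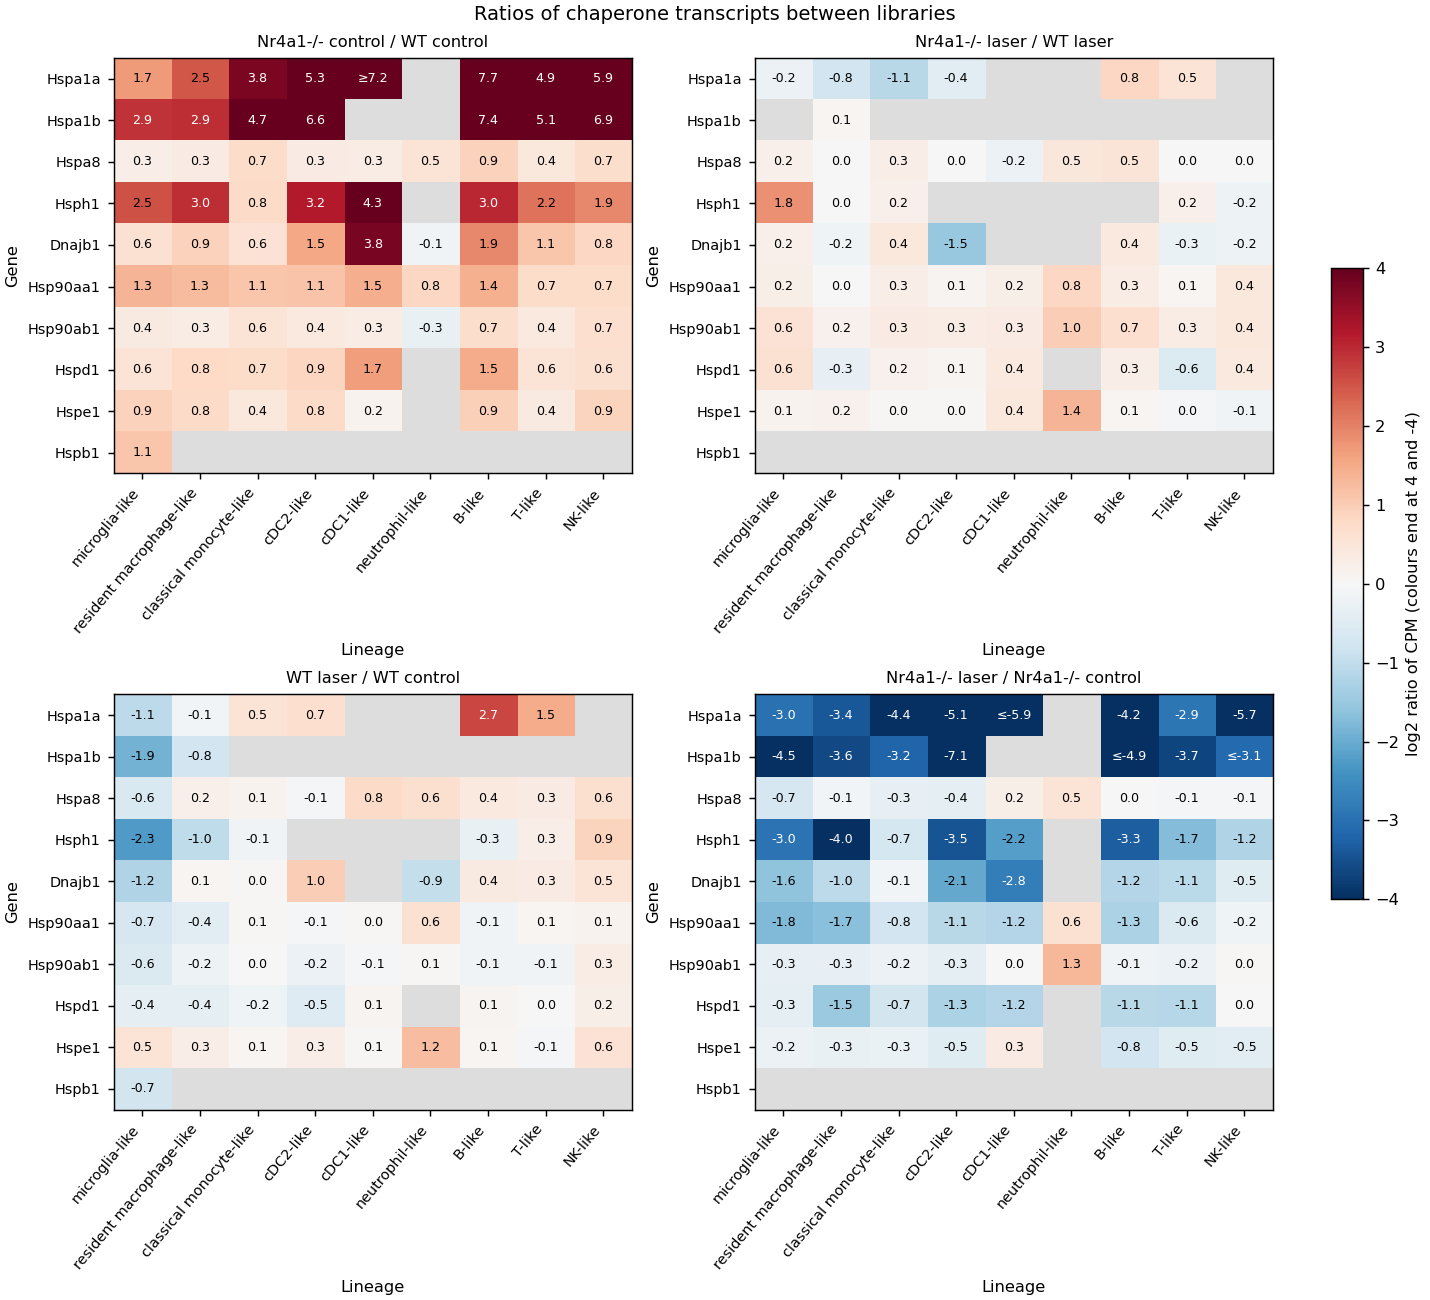
Log2 ratios of CPM for the 10 members (rows) in the 9 lineages (columns), 1 panel for each pair of libraries; grey marks fewer than 40 UMIs over the pair, and signs of at least or at most mark bounds where a library had 0 UMIs. Both panels that hold the Nr4a1-/- control library have strong colours in the HSP70 and Hsph1 rows, and the other 2 panels are pale outside a few cells.

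A summed level can come from many cells with a little or from few cells with a lot, so the HSP70 pair was counted per cell after each cell was thinned to 2000 UMIs. In all kept cells of Nr4a1-/- control 378 of 1885 cells (20.1%, exact 95% interval 18.3% to 21.9%) had at least 1 UMI of Hspa1a or Hspa1b, against 7.69% in WT control, 7.93% in WT laser and 9.76% in Nr4a1-/- laser. Cells with 3 or more such UMIs made up 11.2% (211 of 1885) in Nr4a1-/- control, 1.60% (54 of 3367) in WT control, 1.21% in WT laser and 0.976% (12 of 1230) in Nr4a1-/- laser. The highest cell, a cDC2-like cell of Nr4a1-/- control, had 53.

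By lineage, 31.0% of resident macrophage-like, 23.2% of cDC2-like, 18.9% of microglia-like, 10.6% of classical monocyte-like, 10.2% of B-like, 4.70% of T-like and 3.93% of NK-like cells of Nr4a1-/- control had 3 or more UMIs of the pair. For cDC1-like cells of that library the share was 9.38%, from 3 of 32 cells. In WT control the shares were 9.62% of resident macrophage-like and 6.20% of microglia-like cells, and 0 of 745 B-like cells, which allows a share of up to 0.403%. Cells with any UMI of the pair made up 3.73% of neutrophil-like cells in WT control and 3.61% in Nr4a1-/- control, and none of these held more than 1. In WT control the shares of B-like, T-like and NK-like cells were lower than the neutrophil-like share, at 0.537%, 0.931% and 0.627%. In Nr4a1-/- control the neutrophil-like share rests on 3 of 83 cells, with an exact interval of 0.752% to 10.2%. The shares of NK-like and T-like cells in Nr4a1-/- control were 5.06% and 9.72%. Single NK-like cells there held up to 42 UMIs of Hspa1a before thinning. Free RNA of a cell suspension can reach every cell type. Its part in these shares was not tested, and no lineage was taken as a background for it.

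B-like cells show the pattern most plainly. In Nr4a1-/- control 388 of 449 cells had 0 UMIs of the pair, 15 had 1 or 2, and 46 had 3 or more, with a mean of 15.6. Those 46 cells had a mean of 2.11 UMIs of Hsph1, 10.1 of Hsp90aa1, 9.96 of Hsp90ab1, 5.24 of Hspa8, 3.22 of Hspe1, 2.13 of Hspd1 and 1.33 of Dnajb1. In the 388 cells without the pair the means were 0.0876 of Hsph1, 0.992 of Hsp90aa1, 2.06 of Hsp90ab1, 0.923 of Hspa8, 0.43 of Hspe1, 0.155 of Hspd1 and 0.0619 of Dnajb1. B-like cells of WT control with 0 UMIs of the pair, 741 of 745, had means of 0.0202, 0.715, 1.77, 0.7, 0.375, 0.111 and 0.0445 for the same 7 genes. All 7 were thus highest in the cells that held the HSP70 pair, and cells of this library without it lay much nearer to WT, in Hsph1 least so. The cells were split by a member of the same set, so this is a description of how the members lie together and no test.

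**Figure D4:**
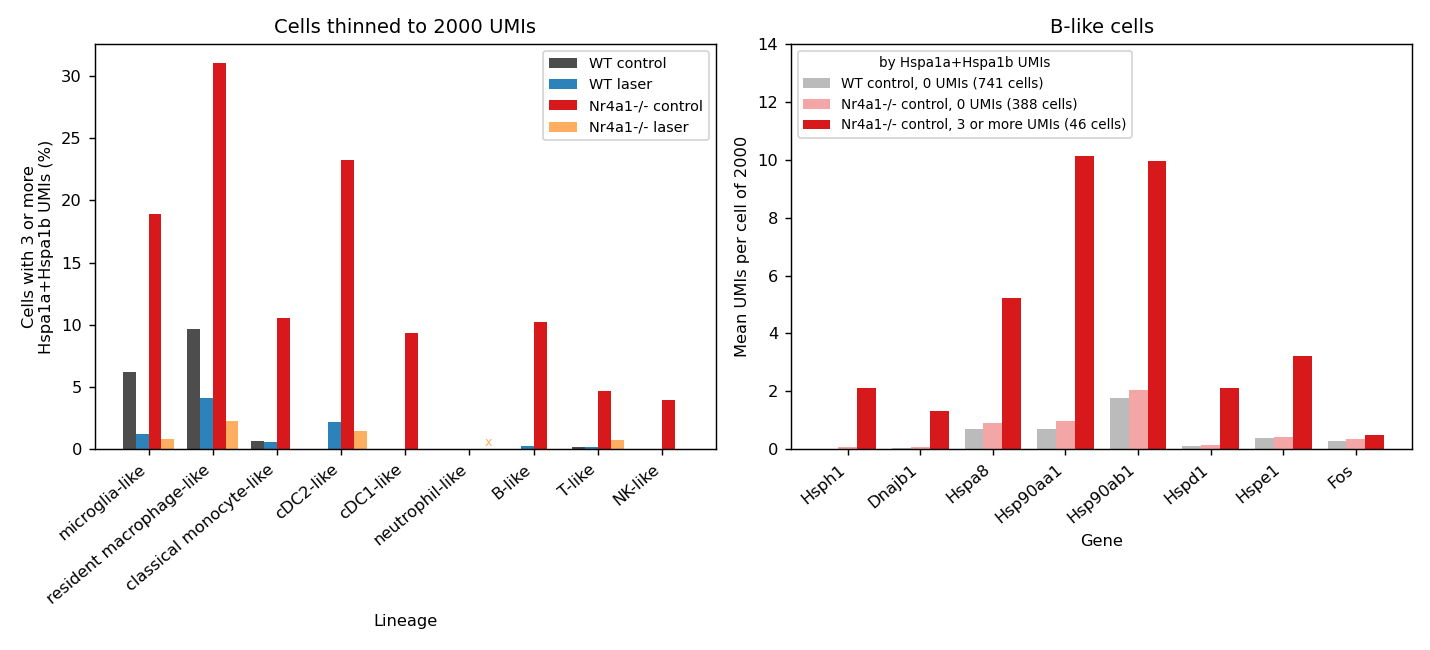
Left, percent of cells with 3 or more UMIs of Hspa1a and Hspa1b together after thinning to 2000 UMIs per cell, by lineage and library, with a cross where fewer than 20 cells were left. Right, mean UMIs per thinned cell of 7 other chaperones and Fos in B-like cells, split by the UMIs of the HSP70 pair; the 46 cells with 3 or more differ from the 2 other classes in the chaperones and less in Fos (0.5 against 0.371 and 0.279).

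Depth and mitochondrial share did not set these cells apart. The 46 B-like cells had a median of 4265 UMIs before thinning and a mitochondrial share of 2.53%, against 4312 and 2.58% in the 388 cells without the pair. Of the immediate-early list, Fos was at a mean of 0.5 and 0.371 in those cells, while Jun was at 2.07 and 0.232. In microglia-like cells of the same library the 41 cells with 3 or more UMIs of the pair had means of 1.78 for Hsph1, 8.46 for Hsp90aa1, 8.12 for Fos and 14.1 for Jun, against 0.0547, 1.77, 3.40 and 5.20 in the 128 cells without it. In the 23 such cells of WT control Hsph1 was at 0.391, Hsp90aa1 at 2.04 and Fos at 7.91. The pair itself had a mean of 3.91 UMIs in these WT cells and 8.88 in those of Nr4a1-/- control, so the same class held less of the pair in WT as well as less Hsph1 and Hsp90aa1. Across cells of Nr4a1-/- control, the correlation of the pair with Hsph1 was 0.596 in microglia-like (217 cells), 0.69 in B-like (449 cells) and 0.604 in T-like cells (319 cells), and 0.238 in microglia-like cells of WT control (371 cells). These values share their libraries and are sparse, and are given as a description.

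Laser treatment was compared with control within each genotype. In WT microglia-like cells members of the set were lower after laser. Dnajb1 went from 346 to 152 CPM (ratio 0.439, 0.397 to 0.485), Hspa1a from 229 to 110 CPM (0.481, 0.426 to 0.542) and Hsph1 from 32.1 to 6.75 CPM (0.210, 0.133 to 0.323). Hspa1b, Hspb1, Hsp90aa1 and Hspa8 had ratios of 0.27, 0.596, 0.631 and 0.66. In all 7 of 10 members were lower by 1.5-fold, where 11% of 9602 genes were, and 0 higher, where 14.8% were. Hspe1 was the one member with a ratio above 1, at 1.46 (1.29 to 1.66).

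Immediate-early and dissociation genes were lower in the same cells. Of the 15 genes of that list 10 were at least 1.5-fold lower in WT laser than WT control, against 11% of all genes, and 0 higher, against 14.8%, and their summed level was 11976 against 22795 CPM, a ratio of 0.525. In the Nr4a1-/- pair 7 of 15 were lower, against 13.9%, and the summed ratio was 0.558. In the genotype comparison of the control pair the summed level of this list was 22795 CPM in WT and 25608 in Nr4a1-/-, a ratio of 1.12, with 2 of 15 higher, against 5.24%. Their part in the members' values was not tested.

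The WT laser ratios of other lineages did not follow microglia-like cells. Over all kept cells 0 of 10 members were higher by 1.5-fold in WT laser than in WT control, against 8.14% of genes, and 1, Hspb1 at 0.432, was lower, against 13.4%. In resident macrophage-like cells Hspa1a had a ratio of 0.921, while Hsph1 (0.494, 0.315 to 0.770) and Hspa1b (0.593, 0.434 to 0.808) were lower, 2 of 9 members against 13.1%, and 0 higher, against 8.33%. Classical monocyte-like cells had 0 of 8 members past the limit either way, against 7.47% higher and 6.32% lower. Hspa1a was higher after laser in WT B-like (6.34, 3.16 to 13.8), T-like (2.83, 1.59 to 5.31) and cDC2-like cells (1.59, 0.986 to 2.69), all from low levels. With Dnajb1 (1.99) in cDC2-like cells, these made 1 of 8, 1 of 8 and 2 of 7 members against 6.14%, 12.6% and 12.6%, with 0 lower, against 4.57%, 4.26% and 10.1%. Much of the B-like value came from 1 cell. After thinning, 1 of 356 B-like cells of WT laser held 12 UMIs of the HSP70 pair, and 5 held 1 or 2. Cells with any UMI of the pair made up 1.69% of them (0.621% to 3.63%), against 0.537% (0.146% to 1.37%) in WT control. The highest cDC2-like cell of WT laser held 11. NK-like cells had Hspa8 (1.55) and Hsph1 (1.87) higher, 2 of 7 against 5.84%, and 0 lower, against 5.04%, and cDC1-like cells Hspa8 (1.70), 1 of 5 against 13.1%, and 0 lower, against 12.7%. Non-classical monocyte-like cells, nearly absent without Nr4a1, had Dnajb1 higher (2.07, 1.34 to 3.22) and Hsph1 lower (0.573, 0.275 to 1.13), 1 of 7 each way against 5.91% and 4.97%. Neutrophil-like cells had 3 of 5 higher, Hspe1, Hspa8 and Hsp90aa1 (2.37, 1.55 and 1.53), against 24.8%, and Dnajb1 lower (0.519), against 13.8%. Only in microglia-like cells were more than 2 members lower in WT. The median gene had a log2 ratio of -0.10 in WT and -0.12 in Nr4a1-/- over all kept cells, a shift that scaling by trimmed means removes.

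In Nr4a1-/- cells the laser comparison again turned on the control library. Microglia-like cells had 1292 Hspa1a UMIs in control and 63 in laser, a ratio of 0.126 (0.0963 to 0.162), and Hsph1, Hspa1b, Hsp90aa1 and Dnajb1 had ratios of 0.129, 0.0451, 0.292 and 0.329. There 6 of 9 members were lower, against 13.9% of 6440 genes, and 0 higher, against 16%. Members lower numbered 6 of 9 in resident macrophage-like (13.7% of genes), 5 of 9 in classical monocyte-like (8.67%), 6 of 9 in cDC2-like (13.8%), 5 of 8 in cDC1-like (11.2%), 7 of 9 in B-like (10.2%), 5 of 9 in T-like (11%) and 3 of 9 in NK-like cells (9.83%). None of these lineages had a member higher, where 8.58%, 6.82%, 10%, 12.9%, 10.8%, 12.8% and 8.05% of genes were. Neutrophil-like cells differed, with Hsp90ab1 (2.50, 1.79 to 3.50) and Hsp90aa1 (1.54, 1.09 to 2.17) higher, 2 of 3 members against 24.2%, and 0 lower, against 28.2%. Over all kept cells 7 of 10 were lower, against 15.6%, and 0 higher, against 7.63%. Hspa1a was lower in 8 of 8 lineages over the minimum and Hsph1 in 8 of 8. The Nr4a1-/- laser comparison shares its control library with the genotype ratios of the control pair and is no separate evidence of them.

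The lineage differences can be tested, because each lineage was measured in up to 4 libraries and its gate used no chaperone. UMIs were summed per lineage and library, 41 sums in all, and fitted with edgeR over 12141 genes with the library as a block, and adjusted p-values are Benjamini-Hochberg values over all these genes. All 10 members passed the filter on low counts. The spread is between libraries of different conditions, so it includes how far a lineage difference moves with condition.

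Microglia-like cells had more Dnajb1, Hspa1a, Hspa1b and Hsp90aa1 than the mean of the other lineages, while Hspa8 (0.05 ± 0.12, edgeR adjusted p = 0.758) did not pass the test. Dnajb1 was higher by 2.45 ± 0.21 on the log2 scale (SE, edgeR adjusted p = 1.28e-12), at 346, 152, 526 and 173 CPM in the 4 libraries, where no other of the 9 lineages passed 238 CPM in any library. Hspa1a was higher by 2.51 ± 0.39 (edgeR adjusted p = 7.73e-07), Hspa1b by 1.70 ± 0.51 (edgeR adjusted p = 0.00451) and Hsp90aa1 by 0.54 ± 0.14 (edgeR adjusted p = 0.00116). Hspb1 also passed the threshold, from 22, 18, 27 and 0 UMIs in these cells. With it 5 of 10 members were higher, against 33.9% of all genes, and 0 lower, against 22.7%, so the count of higher members lay not far above the share of all genes. Hsph1 gave 0.62 ± 0.33 (edgeR adjusted p = 0.109). Without the Nr4a1-/- control library Hspa1a, Hspa1b and Dnajb1 were higher by 3.06, 2.30 and 2.46. Hsph1 then gave 0.25 (edgeR adjusted p = 0.546), and 0.92 without the WT laser library (edgeR adjusted p = 0.00626), so its place among lineages turned on single libraries. Without WT control Hspa1b gave 1.11 (edgeR adjusted p = 0.0808) and Hsp90aa1 0.45 (edgeR adjusted p = 0.0508). Hspb1 was not called without WT laser or by DESeq2 (DESeq2 adjusted p = 0.0905).

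Resident macrophage-like cells had 7 of 10 members higher, against 30.1% of genes, and 1 lower, against 17.0%. Hspa1a and Hspa1b were higher by 3.22 ± 0.36 and 3.17 ± 0.41 (edgeR adjusted p = 1.69e-09 and 3.24e-08), Dnajb1 by 1.54 ± 0.23 (edgeR adjusted p = 4.94e-07), Hspa8 by 0.63 ± 0.11 (edgeR adjusted p = 1.85e-05) and Hsp90aa1 by 0.58 ± 0.14 (edgeR adjusted p = 0.000679). Hsph1 passed narrowly at 0.81 ± 0.33 (edgeR adjusted p = 0.0438), and gave 0.36 (edgeR adjusted p = 0.404) without the Nr4a1-/- control library, 0.91 without WT control or Nr4a1-/- laser (edgeR adjusted p = 0.0761 and 0.0616), and 0.72 by DESeq2 (DESeq2 adjusted p = 0.116). Hspb1 was again not called without WT laser or by DESeq2 (DESeq2 adjusted p = 0.0581). Hspe1 was lower by 0.59 (log2 value -0.59 ± 0.15, edgeR adjusted p = 0.00124). In cDC2-like cells 6 members were higher, against 26.0% of genes, and 0 lower, against 11.1%. They were Hspa8 (0.91), Hspe1 (0.77), Hsp90ab1 (0.73), Hsp90aa1 (0.45) and the HSP70 pair, of which Hspa1b (1.70) gave 0.96 without the Nr4a1-/- control library (edgeR adjusted p = 0.403) and Hspa1a (1.44) 1.34 without WT laser (edgeR adjusted p = 0.0803). By DESeq2 neither of the pair was called (DESeq2 adjusted p = 0.364 and 0.0904), and Hsp90aa1 was not called without either WT library. The immediate-early and dissociation list moved with these members. Of its 15 genes 15 were higher in microglia-like, 14 in resident macrophage-like and 14 in cDC2-like cells and 0 lower in any of the 3, with median log2 values of 1.11, 2.03 and 1.09, against 0.08, 0.08 and 0.07 over all genes. In neutrophil-like cells 8 were higher and 1 lower, and in B-like, T-like and NK-like cells 14, 13 and 12 were lower. The part of these genes in the lineage differences of the members was not tested.

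Neutrophil-like cells had less of most members than the other lineages, with 7 of 10 lower, against 19.8% of genes, and 0 higher, against 22.7%. Among them were Hsp90ab1 (-1.75 ± 0.13, edgeR adjusted p = 5.75e-14), Hspa8 (-1.52 ± 0.14, edgeR adjusted p = 2.70e-11) and Hspe1 (-1.65 ± 0.20, edgeR adjusted p = 1.51e-08). Hspd1 (-2.25 ± 0.31, edgeR adjusted p = 1.37e-07) rests on 6, 17, 1 and 4 UMIs in these cells. Hsp90ab1 was at 279.6, 291, 229 and 574 CPM in these cells, where the median lineage was at 1058, 915, 1404 and 1272 CPM. Hspa1a (-3.03) and Hsph1 (-2.33) also passed the threshold, but without the Nr4a1-/- control library they gave -0.96 and -1.41, with edgeR adjusted p-values of 0.346 and 0.115, and Hsph1 gave -2.24 without Nr4a1-/- laser (edgeR adjusted p = 0.0523).

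The other lineages had fewer members past the threshold. Among lymphocytes, B-like, T-like and NK-like cells had less Hspa8 than the other lineages (-1.27, -0.38 and -0.68, with edgeR adjusted p-values of 5.19e-10, 0.00855 and 3.27e-05), of which the T-like value was not called without either WT library (edgeR adjusted p = 0.0513 and 0.0912). T-like cells had more Hsph1 (0.92 ± 0.32, edgeR adjusted p = 0.0127), which was not called without WT laser or Nr4a1-/- laser (edgeR adjusted p = 0.0767 and 0.0573). In all, B-like cells had 1 member higher and 2 lower (32.4% and 22.8% of genes), T-like cells 2 and 2 (33.3% and 22.1%), and NK-like cells 1 and 2 (25.9% and 18.9%). Hspa8 was higher in cDC1-like (0.95), classical monocyte-like (0.69) and migratory DC-like cells (0.79). The counts were 4 higher and 0 lower in cDC1-like cells (21.5% and 14.4%), 1 and 1 in classical monocyte-like cells (24.1% and 11%), 1 and 0 in monocyte-derived macrophage-like cells (14.5% and 7.53%), 0 and 2 in non-classical monocyte-like cells (15% and 6.83%) and 3 and 0 in migratory DC-like cells (11.8% and 4.51%). The migratory DC-like values rest on 1 sum, the 43 cells of WT laser, which is assumed to vary like the other lineages. Non-classical monocyte-like cells had sums in the WT libraries only, and without either of these 0 members were lower. Of the HSP70 pair, Hspa1a was lower in T-like and NK-like cells (-1.58 and -2.15).

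Microglia-like and resident macrophage-like cells differed in 3 members. Dnajb1 was higher in microglia-like cells by 0.83 ± 0.29 (edgeR adjusted p = 0.0224), 1 member against 19.0% of genes, and Hspa8 and Hspa1b were lower by -0.52 ± 0.16 and -1.35 ± 0.43 (edgeR adjusted p = 0.00858 and 0.0109), 2 members against 19.3%. Hspa1a gave -0.64 ± 0.50 (edgeR adjusted p = 0.329), so the order of these lineages in Hspa1a was not resolved. Dnajb1 was not called without WT control (0.55, edgeR adjusted p = 0.196), and Hspa8 and Hspa1b were not called without WT laser (-0.34 and -1.09, edgeR adjusted p = 0.195 and 0.0929), nor Hspa8 without Nr4a1-/- laser (-0.43, edgeR adjusted p = 0.0817). By DESeq2 neither Dnajb1 nor Hspa1b was called (DESeq2 adjusted p = 0.067 and 0.176). Of the 15 immediate-early genes 1 was higher and 7 were lower in microglia-like than in resident macrophage-like cells. Monocyte-derived macrophage-like cells, which had at least 20 cells in the laser libraries only, had more Hspe1 (0.87 ± 0.24, edgeR adjusted p = 0.00846) and less Dnajb1 (-1.72 ± 0.53, edgeR adjusted p = 0.0186) than resident macrophage-like cells, 1 member each way against 8.66% and 11.2% of genes, and all 15 immediate-early genes were lower. Neither was called without WT laser (edgeR adjusted p = 0.2 and 0.37), nor Dnajb1 without Nr4a1-/- laser (edgeR adjusted p = 0.0753). Their Hspa1a levels were 87.0 CPM in WT laser and 43.7 CPM in Nr4a1-/- laser.

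The wider proteostasis network was described by 7 gene lists. In the control pair of microglia-like cells 3 of the 19 measured genes of HSF1 and its linked co-chaperones were at least 1.5-fold higher, against 5.24% of all genes, and 0 lower, against 7.64%, with a median log2 ratio of 0.09, against -0.01 over all genes. Over all kept cells 3 of 21 were higher and 1 lower, against 3.00% and 6.53%. None of the 8 TRiC chaperonin subunits and 24 proteasome subunits moved by that fold in either direction in microglia-like cells, and 1 of 14 endoplasmic reticulum chaperones was higher. The genes of the first list that were higher were named after their values were seen. Bag3, a nucleotide exchange factor that joins HSP70 to small heat shock proteins, was at 32.5 CPM in WT control and 118 in Nr4a1-/- control microglia-like cells (ratio 3.65), and at 41.7 and 37.4 CPM in the laser pair (0.896). Dnaja1, a cytosolic HSP40, had ratios of 1.91 and 0.959, and Cacybp, a ubiquitin ligase adaptor, of 1.66 and 0.785. Hsf1 itself had ratios of 1.04 and 0.765, at 14.9 to 19.5 CPM.

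By the rule for named genes, Creld2, a reticulum stress protein, was the one listed gene higher in Nr4a1-/- than in WT microglia-like cells in both pairs, by 2.03 (1.22 to 3.39) and 2.74 (1.60 to 4.56). For laser, Dnajb4, an HSP40 close to Dnajb1, had ratios of 0.432 in WT and 0.373 in Nr4a1-/-, Chordc1, an HSP90 co-chaperone, 0.641 and 0.591, and Dnajb9, a reticulum HSP40, 0.507 and 0.482. Psmc1, a proteasome ATPase, was higher after laser, by 1.79 and 1.87.

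The lineage test gave the lists different directions in microglia-like cells. Of 20 HSF1-linked genes tested 6 were higher and 3 lower, with Dnajb4 (2.44 ± 0.15, edgeR adjusted p = 2.27e-16) first. Of 7 other HSP70 genes 3 were higher and 2 lower, and Hspa12a (4.0 ± 0.53) and Hspa13 (1.39 ± 0.19) led. Of 14 endoplasmic reticulum chaperones 6 were higher and 2 lower, led by Dnajb9 (1.35 ± 0.13) and Hspa5 (0.85 ± 0.10), the reticulum HSP70. The TRiC subunits had 0 higher and 5 of 8 lower, such as Cct7 (-0.60 ± 0.12) and Cct5 (-0.58 ± 0.13), and the proteasome 1 higher and 21 of 24 lower, such as Psma7 (-1.45 ± 0.12) and Psmb3 (-1.23 ± 0.12). In the mitochondrial list Hspa9 was higher (0.88 ± 0.13) and Grpel1 lower (-1.03 ± 0.16) of 8 genes. The list named for small heat shock proteins, which leaves out the member Hspb1, had 1 gene tested. This gene, Hspb11, was lower (-0.57 ± 0.22, edgeR adjusted p = 0.0248), whereas Hspb1 passed the threshold as higher. Of the immediate-early genes, Jun (2.81 ± 0.22) and Socs3 (2.22 ± 0.13) led. The 22.7% and 33.9% of all genes given above are the shares against which these counts are read.

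Over the 41 lineage sums, the log2 CPM of Hsph1 had a Pearson's r of 0.75 with Hsp90aa1, 0.70 with both Hspa1a and Hspa1b, 0.64 with Hspd1, 0.57 with both Hsp90ab1 and Dnajb1, 0.47 with Hspb1, 0.35 with Hspe1 and 0.34 with Hspa8. Among 3390 genes outside all lists the 5 most alike were Hnrnpa0, an RNA-binding protein (0.69), mt-Nd2 (0.65) and mt-Atp6 (0.63), subunits encoded in mitochondrial DNA, Zbtb11 (0.61) and Rasa1 (0.60), so 3 of the 9 other members were more alike than the first of these. The points share 4 libraries, so these values describe a likeness of pattern. Hnrnpa0 was at 137, 141, 238 and 137 CPM over all kept cells.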

How the data were processed

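CD45+ cells were profiled with 10x Genomics 3′ RNA libraries and antibody tags. Cell Ranger 7.0.1 with mm10 was used by the authors, whose deposited matrices, 1 per sample, hold raw UMI counts of filtered barcodes. The count matrices of the 87 antibody tags gave only library totals and no result here. The labels give the v2 kit and the methods v3.

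A cell was kept if it had 200 to 5000 detected genes and no more than 15% of its UMIs from mitochondrial genes. A cell joined a lineage with at least 3 of its markers and a lead of 2 over every other lineage. Cells with mixed markers stayed ungated, and no doublet caller was run. Libraries held 7848548 to 38052948 UMIs. CPM was computed from UMIs summed over cells, with exact Poisson intervals for levels, conditional binomial intervals for ratios and Clopper-Pearson intervals for shares, at 95% and for counting error only. A count of 0 allows 3 counts. A gene was counted at 1.5-fold with at least 40 UMIs over a pair.

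Lineages were tested with edgeR 4.0.16 (R 4.3.3, TMM, filterByExpr, quasi-likelihood, library as a block, sums of at least 20 cells, 26 residual degrees of freedom, adjusted p threshold 0.05). On data simulated for microglia-like cells against the other lineages, with 12141 genes, 75% of 2-fold and 97% of 4-fold changes were called. The simulation gave every gene the common dispersion and held no other lineage differences. These shares may therefore not hold for genes that vary more, such as the HSP70 pair. DESeq2 1.42.0, upper-quartile scaling, no low-count filter, no block, a gate of 4 markers and leaving out each library were alternatives. Ratios were recomputed with other gates, scalings, limits and thinning. Gene positions came from GENCODE M21, in which 32158 of the 32285 genes were found, and promoters from RefSeq. Python 3.11.15 was used.

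The members and lists were chosen with earlier results of these data known. Named genes were all members, up to 3 genes per pathway list past the fold in both pairs, up to 2 per list by adjusted p in microglia-like cells, the 5 genes most like Hsph1 among those with a mean of at least 50 CPM (with a pseudocount of 1 CPM), and Nr4a1; 1 gene that the rule names is not reported here. Samples were grouped by title. Each library is 1 preparation of pooled eyes.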

Additional observations from a re-analysis of the deposited data

Results flagged for a closer look

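Several members moved past 1.5-fold one way in one pair of libraries and the other way in the other pair. Each group has 1 library, so none of these differences between pairs was tested.

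In the genotype ratios (Nr4a1-/- over WT), Hspa1a in resident macrophage-like cells was at 5.62 without laser and at 0.584 with it, and at 13.7 and 0.459 in classical monocyte-like cells. Dnajb1 in cDC2-like cells was at 2.90 and 0.351. Hspb1 over all kept cells was at 4.77 and 0.0792, the second from 1 UMI in Nr4a1-/- laser. The near-identical Hspa1b had a ratio of 1.86 with laser in classical monocyte-like cells, under the minimum of UMIs and the other way from Hspa1a.

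In the laser ratios (laser over control), Hspa1a in cDC2-like cells was at 1.59 in WT and 0.0297 in Nr4a1-/-, in B-like cells at 6.34 and 0.0539, and in T-like cells at 2.83 and 0.134. Dnajb1 in cDC2-like cells was at 1.99 and 0.24, and Hsph1 in NK-like cells at 1.87 and 0.43. In WT laser 1 B-like cell held 12 UMIs of the HSP70 pair after thinning, so the B-like value of 6.34 rests largely on 1 cell. The Nr4a1-/- control library is the denominator of each Nr4a1-/- laser ratio and the numerator of each control genotype ratio, so the 9 flags are not independent of one another. That library also carries another library series number than the other 3.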

How the results depend on the processing

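Of 224 recomputed main values and counts 191 were counted as unchanged, and of 1352 other values and counts 1235 were. A count was unchanged if it lay within 1.5 times of the main count. A lineage value was unchanged if it was called, or not called, as before. A ratio rescaled by trimmed means was unchanged if it lay inside its counting interval. No lineage value or single ratio past its limit reversed, and counts could not reverse. The counts of the control pair in microglia-like cells and in all kept cells stayed within 1.5 times under every alternative run. With each cell thinned to 2000 UMIs, members at least 1.5-fold higher in the laser pair of microglia-like cells went from 2 to 0 and members lower in the laser pair of all kept cells from 1 to 0, because fewer genes reached 40 UMIs, while Hsph1 kept a ratio of 3.56. Under the same thinning 1 member was higher in WT laser than WT control microglia-like cells, where 0 had been, and 0 were lower over all kept cells, where 1 had been. With no upper limit on detected genes 1 member was higher in the laser pair and 1 in the WT laser comparison of microglia-like cells, and with no minimum of UMIs 1 member was lower in the laser pair of microglia-like cells. The cause was not tested. Shares of microglia-like cells with an Hspa1a UMI, 27.0% and 13.4% in WT control and laser and 38.2% and 17.1% in the Nr4a1-/- libraries after thinning to 2000 UMIs, were 15.8%, 7.99%, 24.7% and 10.1% at 1000 UMIs and 10.5%, 3.84%, 24.4% and 2.56% when 2 UMIs were required.

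For the lineage tests, without the library as a replicate block 4 members were lower in neutrophil-like cells instead of 7, and microglia-like cells had 0 members higher and 1 lower than resident macrophage-like cells instead of 1 and 2. Against resident macrophage-like cells, upper-quartile scaling gave 2 members higher in microglia-like and 2 in monocyte-derived macrophage-like cells, DESeq2 gave 1 lower and 2 higher, and testing all genes with any UMI gave 2 higher and 3 lower in monocyte-derived macrophage-like cells. Leaving out 1 library at a time gave 3 to 5 members higher in microglia-like cells, with 3 without WT control. Microglia-like against resident macrophage-like cells then had 0 to 1 higher, with 0 without WT control, and 0 to 2 lower, with 0 without WT laser and 1 without Nr4a1-/- laser. Monocyte-derived against resident macrophage-like cells had 0 to 2 higher and 0 to 3 lower. Where 1 library is left for a lineage it is assumed to vary like the others. No paired analysis was possible because each genotype and treatment has 1 library. Depth limits Hspb1, and every member of neutrophil-like cells and of the laser pair of lineages with few cells.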
